A study of Mus musculus with 10 samples.

Results

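Glp1r, Gipr, Gcgr, Glp2r, Dpp4, Insr, Irs1 and Irs2 were described in 10 subcutaneous tumors, 5 from mice treated with liraglutide and 5 from mice given the PBS vehicle. The 8 genes were chosen by name among the 55401 gene identifiers of the count table, of which 35141 had at least 1 count in a tumor and 17464 passed a filter on low counts. Of the 8, Glp1r, Dpp4, Insr, Irs1 and Irs2 passed, while Gipr, Gcgr and Glp2r did not and are given as raw counts. Liraglutide, an agonist of the GLP-1 receptor, was injected intraperitoneally once a day at 0.2 μg per g body weight, from the time that tumors were palpable. Both groups were male C57BL/6J mice made obese on a high-fat diet, aged 7 to 17 weeks when 75000 KPN1.1 cells were injected in the flank. KPN1.1 is a mouse lung adenocarcinoma line, so the cancer cells of all 10 tumors came from 1 line. Tumors were harvested on days 19 to 22 or at up to 2000 mm3, each from its own mouse, and RNA was taken from a frozen fragment that held cancer cells and host cells together. In such bulk RNA, fewer cells of a type and less RNA per cell cannot be told apart.

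The incretins GLP-1 and GIP are gut hormones that raise insulin release after a meal. Their receptors, like those of glucagon and GLP-2, belong to class B of the G protein-coupled receptors and signal mainly through Gs, cAMP and protein kinase A, and the peptidase DPP4 cuts and inactivates the incretins. The insulin receptor is a tyrosine kinase that phosphorylates the substrate proteins IRS1 and IRS2, which in turn recruit PI3K and so activate AKT. AKT keeps FOXO factors out of the nucleus, and FOXO factors in turn induce genes such as Irs2 and Insr in several tissues.

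Promoter windows of Glp1r, Irs1 and Irs2 are shown because these genes had the largest fitted differences between the groups among the 5 tested. Each runs from 250 bases before to 50 after the annotated start, as given by RefSeq on GRCm38.p6. Glp1r lies at chr17:30901617-30901916 on the plus strand, Irs1 at chr1:82291390-82291689 on the minus strand and Irs2 at chr8:11008880-11009179 on the minus strand. Capitals mark the GC box core GGGCGG and the CRE half-site TGACG, each read on both strands.
Glp1r: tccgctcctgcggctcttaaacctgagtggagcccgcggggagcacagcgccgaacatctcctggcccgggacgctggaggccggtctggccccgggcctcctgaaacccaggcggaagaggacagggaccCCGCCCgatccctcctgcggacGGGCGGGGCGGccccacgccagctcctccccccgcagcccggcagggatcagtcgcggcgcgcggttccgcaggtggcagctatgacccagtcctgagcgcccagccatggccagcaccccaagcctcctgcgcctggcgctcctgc
Irs1: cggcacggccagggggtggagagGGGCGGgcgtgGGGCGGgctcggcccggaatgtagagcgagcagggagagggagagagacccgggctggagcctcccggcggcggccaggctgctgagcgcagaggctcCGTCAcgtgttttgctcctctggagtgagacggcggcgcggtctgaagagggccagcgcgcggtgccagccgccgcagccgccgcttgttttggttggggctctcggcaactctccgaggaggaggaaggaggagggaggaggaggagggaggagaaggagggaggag
Irs2: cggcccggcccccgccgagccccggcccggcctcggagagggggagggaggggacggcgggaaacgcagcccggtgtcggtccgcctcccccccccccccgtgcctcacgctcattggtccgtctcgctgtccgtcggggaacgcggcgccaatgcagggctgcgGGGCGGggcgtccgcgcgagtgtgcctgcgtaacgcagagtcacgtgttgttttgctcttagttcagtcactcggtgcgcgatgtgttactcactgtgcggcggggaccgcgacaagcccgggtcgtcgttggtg
All 3 windows were rich in GC, at 73.7% in Glp1r, 71.3% in Irs1 and 72% in Irs2, where the median over all windows was 52.7%. They held 29, 28 and 41 CpG dinucleotides, against a median of 7. GGGCGG occurred at 3 places in Glp1r, 2 in Irs1 and 1 in Irs2, and in 35.7% of the 32851 windows of that length. TGACG occurred once, in Irs1, and in 20.8% of windows. The full cAMP response element TGACGTCA, which contains TGACG, was in 1.79% of windows, and the FOXO motif GTAAACA was in 3.65%. Neither was found in the windows of the 6 genes that have one, which says only that these letters are not in these stretches. The windows of Gcgr and Glp2r had 71.7% and 51.3% GC and that of Dpp4 45.3%, with 4 CpG dinucleotides.

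On GRCm39, with GENCODE M39 gene models, Glp1r lies on chromosome 17 from 31120525 to 31159765, Insr on chromosome 8 from 3172061 to 3329647, Irs1 on chromosome 1 from 82210822 to 82269338 and Irs2 on chromosome 8 from 11034681 to 11059499. The GRCm39 positions are not interchangeable with those of the promoter windows, which are on GRCm38.p6. Exons of noncoding genes on the other strand overlap exons of Glp1r over 123 bases (Gm10503), of Irs1 over 309 (Gm70174) and of Insr over 127 (Gm64081). Irs2 has such overlaps over 366 bases with 9530052E02Rik and 223 with Gm63916. The strand setting of the counting was not given in the sources used here, so reads from these stretches may come from either strand.

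Total counts lay between 9927942 and 14480593 per tumor, so that 3 counts, taken as the smallest level this depth can show, were 0.207 to 0.315 CPM. CPM are counts divided by the library size, brought to a common scale, and the library sizes were adjusted by TMM, a factor that corrects for differences in composition between libraries. The groups were compared with edgeR's quasi-likelihood test, and p-values were adjusted over all 17464 genes by the Benjamini-Hochberg method. At an adjusted p under 0.05 edgeR called 0 genes (0.0%), and the smallest adjusted p was 0.482, while DESeq2 called 52 of the 3796 genes that it gave an adjusted p (1.37%). At an unadjusted p under 0.05 edgeR had 1675 genes (9.59%), 694 higher (3.97%) and 981 lower (5.62%) with liraglutide. Beside those shares, 4 of the 5 tested genes had an unadjusted p under 0.05. Insr, Irs1 and Irs2 had higher and Glp1r had lower values in the liraglutide group. The genes were chosen with earlier results of these data known, and Irs1 and Irs2 varied together, so these 4 are not independent. None of the 5 had an adjusted p under 0.05 with edgeR or DESeq2, though DESeq2 gave Glp1r and Dpp4 no adjusted p.

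Per length of exon, the insulin receptor and its substrates were the most abundant of the 8 genes and the receptors of glucagon and GLP-2 the least. Insr had 10.9 ± 0.571 CPM per kilobase in vehicle tumors and 12.9 ± 0.758 in liraglutide tumors (SD, n = 5 each). Irs2 had 8.33 ± 1.97 and 12.4 ± 3.47, and Irs1 5.57 ± 1.84 and 8.20 ± 1.38. Insr and Irs2 were not separated in order, since Insr was the higher in 5 of 5 vehicle tumors and in 2 of 5 liraglutide tumors. Igf1r, the paralog of Insr and receptor of IGF1, fell between the substrates at 7.72 ± 2.26 and 9.06 ± 1.67 CPM per kilobase, above Irs1 in 6 of the 10 tumors. Glp1r came next at 2.04 ± 2.00 and 0.368 ± 0.330, below Irs1 in 9 of 10 tumors, and Dpp4 had 0.635 ± 0.164 and 0.529 ± 0.127. Glp1r and Dpp4 could not be ordered, as Glp1r was the higher in 3 vehicle and 2 liraglutide tumors. Gipr had 0.170 ± 0.129 and 0.0991 ± 0.0441, below Dpp4 in 9 tumors. Gcgr, at 0.0163 and 0.0277, was below Gipr in all 10 tumors and above Glp2r, at 0.0186 and 0.0216, in 5.

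**Figure D1:**
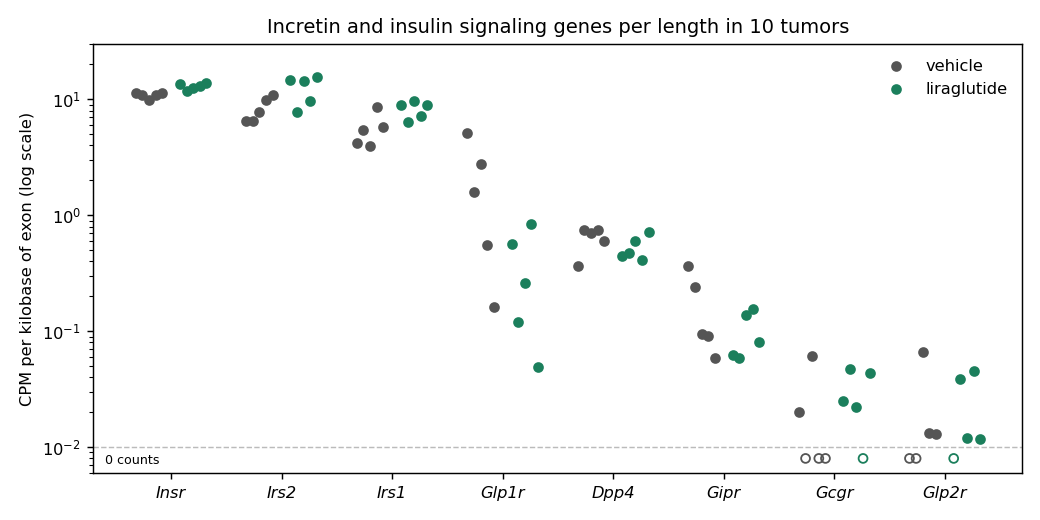
Level of each of the 8 genes in each tumor, in CPM per kilobase of exon on a log scale, with vehicle tumors in gray and liraglutide tumors in green. Open circles under the dashed line are tumors with 0 counts. Insr, Irs2 and Irs1 lie at the top, Glp1r spans the widest range of the genes with counts in every tumor, and Gcgr and Glp2r are at 0 in 4 and 3 tumors.

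Glp1r, the receptor that liraglutide binds, had the widest spread of the tested genes. Its raw counts were 450, 95, 161, 40 and 12 in vehicle tumors 1 to 5 and 40, 9, 21, 54 and 4 in liraglutide tumors 1 to 5. In CPM the vehicle tumors had 31.1, 9.63, 16.9, 3.35 and 0.977, and the liraglutide tumors 3.46, 0.735, 1.59, 5.10 and 0.298. Vehicle tumors 1, 2 and 3 were above every liraglutide tumor, and all 5 liraglutide tumors were below the vehicle median of 9.63. The groups overlapped, because vehicle tumors 4 and 5 lay within the liraglutide range, and the highest tumor had 104 times the CPM of the lowest. The group means were 12.4 ± 12.1 and 2.24 ± 2.01 CPM (SD, n = 5 each). The fitted log2 fold change was -2.49 ± 0.88 (SE), which is 5.62-fold higher in vehicle tumors, with an edgeR p of 0.0162 and an adjusted p of 0.482. A two-sided exact permutation test of log2 CPM gave p = 0.0873. Of all genes tested, 5 (0.0286%) had a log2 fold change this low or lower, yet Glp1r ranked 576 by p because of its spread. Vehicle tumor 1 alone held 450 of the 758 vehicle counts, and without it the log2 fold change was -1.79 with an edgeR p of 0.0571 and an adjusted p of 0.731. With limma-voom the unadjusted p was 0.0656.

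**Figure D2:**
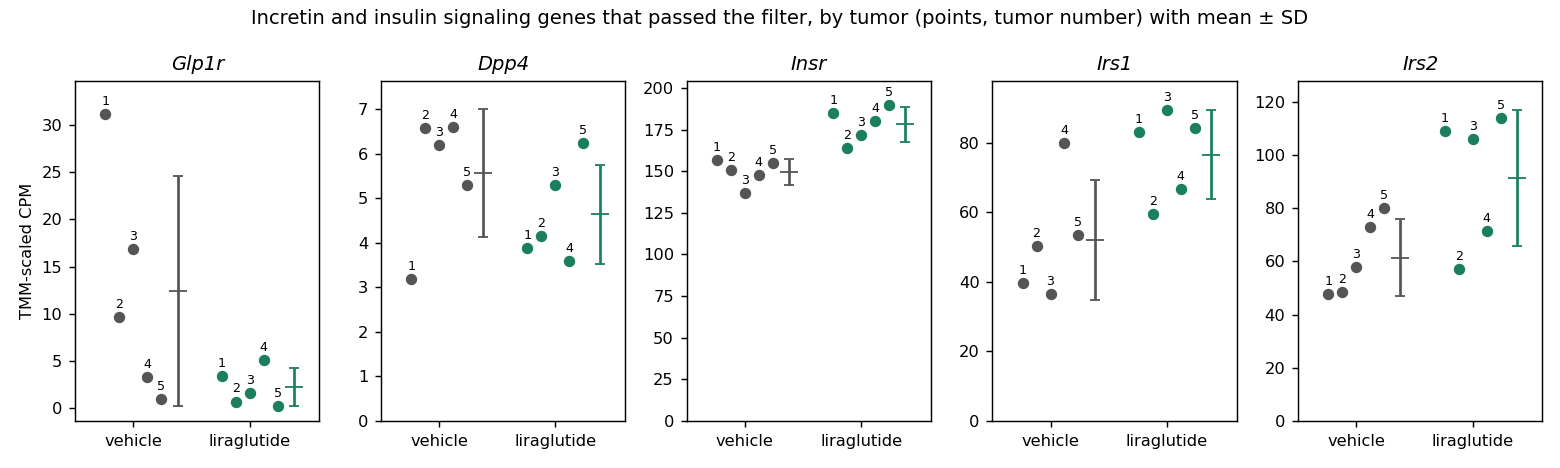
TMM-scaled CPM of the 5 genes that passed the filter in each tumor, with vehicle in gray and liraglutide in green. Points carry the tumor number, and the bar beside each group is the mean ± SD. The groups are apart without overlap in Insr, while vehicle tumors 1 to 3 of Glp1r stand above the 5 liraglutide tumors.

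Gipr, the receptor of GIP, was near the detection limit. It had 29, 13, 5, 6 and 4 counts in the vehicle tumors and 4, 4, 10, 9 and 6 in the liraglutide tumors. Vehicle tumors 1 and 2 had the highest counts, and the remaining 3 lay within the range of the liraglutide tumors. The means were 0.935 ± 0.710 and 0.545 ± 0.243 CPM (SD, n = 5 each), a difference within the spread between tumors (two-sided exact permutation test, p = 0.317). The difference of -0.389 CPM became -0.122 without vehicle tumor 1, which held 29 of the 57 vehicle counts, and lay between -0.542 and -0.294 without each of the other tumors. Pooled over a group, and with library size alone, this was 0.962 CPM in vehicle tumors (95% exact Poisson interval 0.729 to 1.25) and 0.549 in liraglutide tumors (0.378 to 0.772). These intervals cover counting error only and leave out the spread between tumors.

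Gcgr, the glucagon receptor, had 1, 0, 2, 0 and 0 counts in vehicle tumors and 1, 2, 1, 0 and 2 in liraglutide tumors. No tumor reached 3 counts of Gcgr. Glp2r, the receptor of GLP-2, had 0, 0, 4, 1 and 1 counts in vehicle tumors and 0, 3, 1, 3 and 1 in liraglutide tumors. The pooled Gcgr level was 0.0506 CPM (0.0104 to 0.148) in vehicle and 0.0999 (0.0367 to 0.217) in liraglutide tumors, and that of Glp2r 0.101 (0.0372 to 0.220) and 0.133 (0.0575 to 0.262). A difference between the groups was not detectable at this depth in either gene (two-sided exact permutation tests of CPM, p = 0.413 and p = 0.897).

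**Figure D3:**
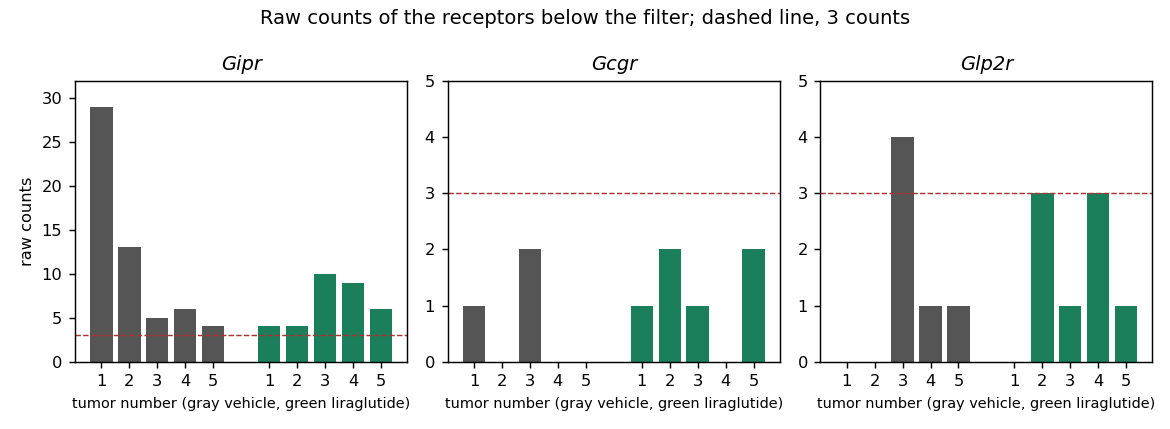
Raw counts of Gipr, Gcgr and Glp2r in vehicle tumors 1 to 5 (gray) and liraglutide tumors 1 to 5 (green), with a dashed line at 3 counts. Gipr is above the line in all 10 tumors, at 4 to 29 counts, and Gcgr is below it in all 10.

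The incretin and insulin genes themselves were at the limit of the libraries. Gcg, which encodes glucagon, GLP-1 and GLP-2, had 4 counts over the vehicle tumors, at most 1 in a tumor, and 0 over the liraglutide tumors. Gip had 5 and 2 counts, and Ins1 and Ins2 had 0 in all 10 tumors, which allows up to 0.207 to 0.315 CPM per tumor.

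Dpp4, the peptidase that inactivates GLP-1 and GIP and is also a surface antigen of T cells and fibroblasts, differed by less than the spread between tumors. The vehicle tumors had 3.18, 6.59, 6.19, 6.61 and 5.29 CPM and the liraglutide tumors 3.89, 4.16, 5.31, 3.59 and 6.25, from 38 to 84 counts. Vehicle tumor 1 was the lowest of all 10 and vehicle tumors 2 and 4 the highest, so the vehicle range spanned the liraglutide range. The means were 5.57 ± 1.44 and 4.64 ± 1.11 CPM (SD, n = 5 each), with a log2 fold change of -0.26 ± 0.24 (SE), an edgeR adjusted p of 0.727 and an exact permutation p of 0.349.

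Insr, the insulin receptor, was the 1 gene of the 8 whose groups did not overlap. The vehicle tumors had 157, 151, 137, 148 and 155 CPM and the liraglutide tumors 185, 164, 172, 180 and 190, from 1304 to 2551 counts. All 5 liraglutide tumors were above all 5 vehicle tumors, which held in this direction for 106 of all genes tested (0.607%) and in the other for 155 (0.888%). The difference was small in size, with means of 150 ± 7.86 and 178 ± 10.4 CPM (SD, n = 5 each) and a fold of 1.19. The log2 fold change was 0.25 ± 0.08 (SE), with an edgeR p of 0.00968 and an adjusted p of 0.482. The exact permutation p was 0.00794, the smallest that 5 tumors against 5 can give. Leaving out each tumor in turn gave log2 fold changes of 0.23 to 0.29, each with an unadjusted edgeR p under 0.05. The whole range over the 10 tumors was 1.39-fold, against 104-fold for Glp1r.

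Irs1, the first of the substrate proteins, had 39.6, 50.4, 36.6, 80.0 and 53.5 CPM in vehicle tumors and 83.1, 59.4, 89.5, 66.8 and 84.3 in liraglutide tumors. Vehicle tumor 4 reached the liraglutide range, and the remaining 4 vehicle tumors were below all liraglutide tumors. The means were 52.0 ± 17.2 and 76.6 ± 12.9 CPM (SD, n = 5 each), 1.47-fold apart, with a log2 fold change of 0.56 ± 0.21 (SE), an edgeR p of 0.0207 and an adjusted p of 0.493. The exact permutation p was 0.0397.

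Irs2, the substrate that FOXO factors induce in liver, had 47.9, 48.3, 57.7, 72.8 and 80.1 CPM in vehicle tumors and 109, 57.0, 106, 71.3 and 114 in liraglutide tumors. Liraglutide tumors 1, 3 and 5 stood above every vehicle tumor, while tumors 2 and 4 lay inside the vehicle range. The means were 61.4 ± 14.5 and 91.4 ± 25.6 CPM (SD, n = 5 each), 1.49-fold apart, with a log2 fold change of 0.58 ± 0.22 (SE), an edgeR p of 0.0232 and an adjusted p of 0.499. The exact permutation test did not reach 0.05 (p = 0.0714), and of the 10 fits that left out a tumor, 5 had an unadjusted p under 0.05, against 8 of 10 for Irs1.

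Irs1 and Irs2 varied together from tumor to tumor. Over the 10 tumors their log2 CPM had a Pearson r of 0.82 (permutation p = 0.00506) and a Spearman rho of 0.81 (permutation p = 0.00743). With 50 relations in the same family the adjusted permutation p was 0.185 for r and 0.186 for rho. The correlation was 0.76 without liraglutide tumors 5 and 1, and 0.70 after the group means were subtracted, with 0.60 among the vehicle tumors and 0.98 among the liraglutide tumors. The ratio of Irs2 to Irs1 per kilobase ranged from 1.15 to 2.00 in vehicle and from 1.22 to 1.71 in liraglutide tumors, and the log2 ratio differed by -0.04 between the groups (exact permutation p = 0.817). Insr correlated with Irs1 at r = 0.72 (permutation p = 0.0229, adjusted 0.27), which dropped to 0.35 after the group means were subtracted. The ratio of Insr to Igf1r was 1.08 to 2.02 in vehicle and 1.14 to 1.71 in liraglutide tumors, with a log2 difference of -0.01 (exact permutation p = 0.992). Igf1r itself had 153 ± 44.7 and 179 ± 33.0 CPM (SD, n = 5 each) and an edgeR adjusted p of 0.705.

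Markers of the labelled cell type, summed by list, were present in all tumors but varied between them. The 5 carcinoma epithelium markers, Epcam, Krt8, Krt18, Krt19 and Cdh1, summed to 4600 to 9650 CPM in vehicle and 4670 to 6920 CPM in liraglutide tumors. Epcam was low, at 0.163 to 4.63 CPM, the lowest from 2 counts. Sftpc, of the lung epithelium list, had 0 counts in vehicle tumor 2 and 1 in vehicle tumors 1 and 3 and liraglutide tumor 1. The 5 lung epithelium markers, Nkx2-1, Sftpc, Sftpb, Napsa and Scgb1a1, summed to 92.7 to 602 CPM in vehicle and 179 to 553 CPM in liraglutide tumors, none of them was at 0 in all tumors, and 1 of the 5, Nkx2-1, had an unadjusted edgeR p under 0.05, against 9.59% of all tested genes. Their score, the mean of standardized log2 CPM, was -0.969, -0.743, -1.06, 0.685 and 0.171 in the vehicle tumors and -0.521, 0.249, 1.19, 0.176 and 0.828 in the liraglutide tumors. The score was lowest in vehicle tumors 1, 2 and 3, the tumors with the highest Glp1r. Nkx2-1, the lineage factor of lung adenocarcinoma, had 25.2, 17.7 and 26.6 CPM in those 3 tumors and 52.2 to 132 CPM in the remaining 7. The other 4 lung epithelium markers did not separate these 3 tumors from the rest, as Sftpb, a surfactant protein, had 65.1, 147 and 134 CPM in them and 73.4 to 530 CPM in the remaining 7, and Napsa, Sftpc and Scgb1a1 overlapped likewise. Single markers of other lists, named after their values were seen, did set them apart. Cdh1, an epithelial cadherin, had 560, 617 and 814 CPM in them and 966 to 2240 CPM in the remaining 7. Epcam, Krt8, Krt18 and Krt19 overlapped, with Krt8 at 1770, 2060 and 2950 against 1630 to 3290 CPM. Mrc1, the mannose receptor of macrophages, had 673, 724 and 761 against 190 to 457 CPM. The macrophage markers Adgre1, Csf1r, Cd68, C1qa and C1qb overlapped, with Csf1r at 37.4, 31.0 and 48.2 against 35.6 to 70.8 CPM. Cd3e, a chain of the T cell receptor complex, had 0.345 to 0.608 CPM in these 3 tumors, from 4 to 6 counts. The remaining 7 had 1.12 to 4.47 CPM. Cd3d was apart only narrowly, at 0.101 to 0.420 against 0.432 to 2.05 CPM, while Cd3g, Cd4, Cd8a, Foxp3 and Trac overlapped.

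Across all 10 tumors Glp1r was lower where the lung epithelium score was higher, a relation examined after the values had been seen. Pearson's r was -0.79 (permutation p = 0.00748) and Spearman's rho was -0.79 (permutation p = 0.00841), with adjusted values of 0.0922 and 0.126 over 15 relations. Without vehicle tumors 3 and 1 r was -0.60, and after the group means were subtracted it was -0.71, with -0.82 among vehicle and -0.53 among liraglutide tumors. Irs1 ran the other way, with r = 0.81 against the same score (permutation p = 0.00741, adjusted 0.185 over 50 relations), 0.60 without vehicle tumors 3 and 1, and 0.73 with the group means subtracted, with 0.93 among vehicle and 0.34 among liraglutide tumors. Glp1r had r = -0.68 with Irs1 and -0.67 with Irs2 (adjusted permutation p = 0.146 for both). The first rested on vehicle tumors 3 and 1, since r was -0.26 without them, and after the group means were subtracted both were -0.48, with -0.07 and -0.11 among the liraglutide tumors. It had r = -0.76 with the T cell score (permutation p = 0.0123, adjusted 0.0922), whose 7 markers summed to 6.69 to 24.3 CPM in vehicle and 10 to 31.5 CPM in liraglutide tumors, and that r was -0.59 without vehicle tumors 2 and 1 and -0.22 among the liraglutide tumors. The part of tumor composition in the differences of Glp1r, Irs1 and Irs2 between the groups was not tested.

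**Figure D4:**
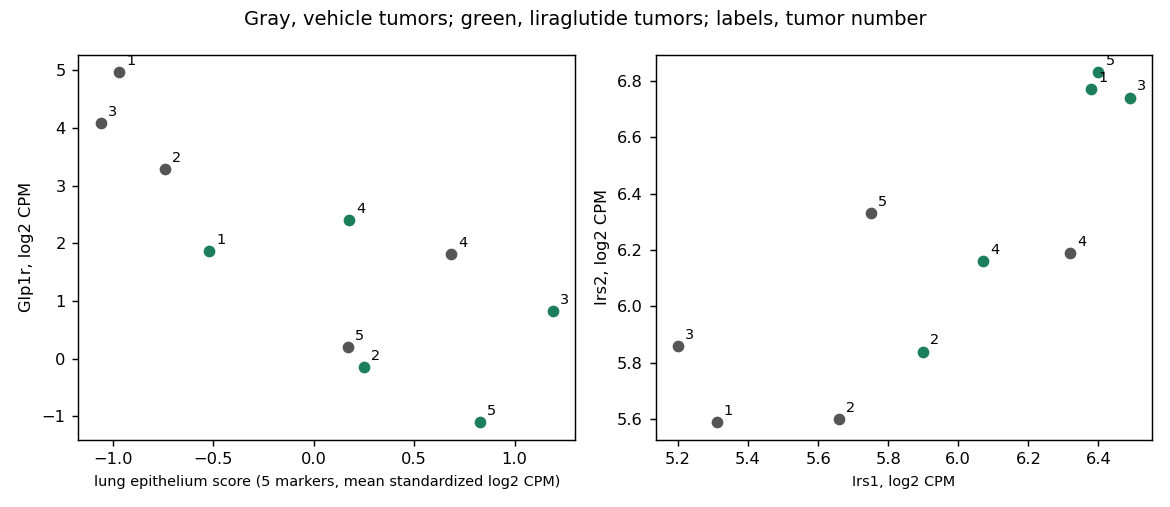
Glp1r in log2 CPM against the lung epithelium score (left) and Irs2 against Irs1 in log2 CPM (right), 1 point per tumor with its number, vehicle in gray and liraglutide in green. Vehicle tumors 1, 2 and 3 sit at the upper left of the first panel and at the lower left of the second.

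Dpp4 was higher where the adipocyte score was higher (r = 0.71, permutation p = 0.0217, adjusted 0.27 over 50 relations), and r was 0.51 without vehicle tumors 1 and 3. The score used the 3 of 5 adipocyte markers that passed the filter. All 5 summed to 3.39 to 31.3 CPM in vehicle and 6.29 to 30.5 CPM in liraglutide tumors. Summed levels of 4 leukocyte markers were 89.4 to 176 and 102 to 168 CPM, those of 6 fibroblast markers 858 to 2040 and 1170 to 2260 CPM, and those of 5 skeletal muscle markers 29.6 to 232 and 57.0 to 280 CPM. Keratinocyte markers summed to 8.57 to 17.6 CPM in vehicle and 6.74 to 202 CPM in liraglutide tumors, and 3 of the 4 tested had an unadjusted edgeR p under 0.05, as had 1 of 6 fibroblast markers and 9.59% of all tested genes. Krt14, a basal keratin, was at 93.9, 26.2 and 25.5 CPM in liraglutide tumors 2, 4 and 5 and at 2.00 to 11.6 CPM in the remaining 7.

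The genes whose log2 CPM over the 10 tumors was most like that of each tested gene were found among 11816 genes of at least 5 CPM, with no test, since the highest of so many correlations is high by selection. For Glp1r these included Igsf11 and Pias4, with r of 0.92 and 0.91. For Insr they included Ccdc167 and Tsc2 (0.92 and 0.91), and for Dpp4 they were Wwp1, Cox7b and Nsmce1 (0.88, 0.84 and 0.83). For Irs1 they were Kirrel3, Car13 and the long noncoding RNA Gm34648 (0.96, 0.95 and 0.95). For Irs2 they were Eif2ak1, Mpdz and Fam234a (0.99, 0.98 and 0.97).

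Other genes of the pathways were taken from 7 lists. No gene of any list had an adjusted edgeR p under 0.05, and the median log2 fold change over all tested genes was -0.02. Among incretin and glucagon ligands, convertases and peptidases, 8 of 12 genes were tested, with 6 log2 fold changes above 0, as 47.4% of all tested genes had, and a median of 0.18. That median was 0.07 without liraglutide tumor 5, 0.09 without vehicle tumor 1, 0.10 without vehicle tumor 5 or liraglutide tumor 3 and 0.11 without vehicle tumor 2. Ace, the angiotensin converting enzyme, which can also cleave other peptides, was the 1 gene of the list with an unadjusted p under 0.05. Of all tested genes 9.59% had such a p. Without vehicle tumor 3, 4 or 5 or liraglutide tumor 2 the list had 2 such genes. Ace had 41.9 ± 14.6 CPM in vehicle tumors and 89.4 ± 28.2 in liraglutide tumors (SD, n = 5 each), with 4 liraglutide tumors above every vehicle tumor. Its log2 fold change was 1.09 ± 0.26 (SE), with an edgeR adjusted p of 0.482 and a DESeq2 adjusted p of 0.0216. The dipeptidyl peptidases Dpp9 and Dpp7 had log2 fold changes of 0.29 ± 0.17 and 0.34 ± 0.19.

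Of 11 other class B receptors 4 were tested, 2 with a log2 fold change above 0, and the median was -0.16, or 0.13 without vehicle tumor 5. Calcrl, which with RAMP proteins forms the receptors of CGRP and adrenomedullin, had 110 ± 32.8 CPM in vehicle and 51.0 ± 17.7 CPM in liraglutide tumors (SD, n = 5 each), and 3 liraglutide tumors were below every vehicle tumor. Its log2 fold change was -1.11 ± 0.28 (SE), with an adjusted p of 0.482 by edgeR and 0.0329 by DESeq2. Pth1r, the parathyroid hormone receptor, had a log2 fold change of 0.41 ± 0.31, and Adcyap1r1, the PACAP receptor, -0.34 ± 0.53.

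The Gs, cAMP, PKA and EPAC machinery had 31 of 34 genes tested, 2 with an unadjusted p under 0.05 and higher values and 0 with lower values in the liraglutide group, against 3.97% and 5.62% of all tested genes, and a median log2 fold change of 0.11. The count was 0 without liraglutide tumor 5, 1 without vehicle tumors 2, 3 or 4 or liraglutide tumors 1 or 4, and 4 without vehicle tumor 5 or liraglutide tumor 2. Gnas, which encodes the Gs alpha subunit itself, had only 1077 counts over the 10 tumors, and how reads shared between overlapping or similar genes were counted was not given in the sources used here, so its level is uncertain. Crebbp, the coactivator that binds phosphorylated CREB, had 244 ± 15.9 and 282 ± 16.8 CPM (SD, n = 5 each), a log2 fold change of 0.21 ± 0.08 (SE) and an edgeR adjusted p of 0.503. Its groups did not overlap, as in 1 of the 31 genes of the list and 0.607% of all tested genes in this direction. The adenylyl cyclases Adcy6 and Adcy9 had log2 fold changes of 0.39 ± 0.16 and 0.52 ± 0.24. All 16 cAMP and CREB induced genes were tested, 8 above 0 and 8 below, with a median of -0.08 that was 0.01 without vehicle tumor 3. Nr4a2, an orphan nuclear receptor and immediate early gene, had 6.32 ± 1.33 and 9.39 ± 2.04 CPM (SD, n = 5 each) and a log2 fold change of 0.57 ± 0.20 (SE), with an adjusted p of 0.482 by edgeR. Areg, an EGF receptor ligand, and Dusp1, a MAP kinase phosphatase, had log2 fold changes of -0.45 ± 0.22 and -0.49 ± 0.26.

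The steps from the insulin receptor through PI3K and AKT to mTORC1 had 39 of 43 genes tested, 21 above 0 and 18 below, with a median log2 fold change of 0.02 that was -0.01 without liraglutide tumor 1. With an unadjusted p under 0.05 there were 5 higher and 2 lower in the liraglutide group, against 3.97% and 5.62% of all tested genes. These 7 became 2 without vehicle tumor 2, liraglutide tumor 3 or liraglutide tumor 5, 3 without vehicle tumor 3 and 4 without vehicle tumor 1, and 5 to 10 without each of the remaining tumors. Sh2b1, an adaptor that binds the activated insulin receptor, had 35.2 ± 2.24 and 44.0 ± 3.54 CPM, and Tsc2, a brake on mTORC1, had 102 ± 8.89 and 126 ± 12.8 CPM (SD, n = 5 each). The groups of both genes, which were named for having small p-values, did not overlap, as held in this direction for 0.607% of all tested genes, and their log2 fold changes were 0.32 ± 0.09 and 0.31 ± 0.10 (SE), each with an edgeR adjusted p of 0.482. Hk2, a hexokinase, had 316 ± 86.1 and 218 ± 45.6 CPM (SD, n = 5 each) and a log2 fold change of -0.54 ± 0.21. The others with a p under 0.05, named after their values were seen, were Gab1 at 0.60, Pik3r1 at 0.45, Pik3r3 at 0.51 and the glucose transporter Slc2a1 at -0.75. Slc2a4, the insulin-responsive glucose transporter, had 23 and 21 counts over the groups and was not tested.

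All 18 brakes on insulin signaling were tested, 11 above 0, with a median log2 fold change of 0.08. The tyrosine phosphatases Ptprf and Ptpn1 had log2 fold changes of 0.61 ± 0.26 and 0.23 ± 0.10 (SE), with unadjusted edgeR p of 0.0361 and 0.0454, and Ptpn2 had -0.25 ± 0.12. These were 2 of 18 genes, against 9.59% of all tested genes, and the count was 0 without vehicle tumors 1, 2 or 3 or liraglutide tumors 3 or 5, 4 without vehicle tumor 4 and 5 without vehicle tumor 5. Of 18 FOXO-induced genes 13 were tested, 7 above 0, with a median of 0.10 that was -0.01, -0.04 and -0.03 without vehicle tumor 1, vehicle tumor 2 and liraglutide tumor 3. Bnip3, a mitophagy receptor that hypoxia also induces, had 109 ± 28.2 and 58.4 ± 21.5 CPM (SD, n = 5 each), with 4 liraglutide tumors below every vehicle tumor, a log2 fold change of -0.90 ± 0.26 (SE) and an edgeR adjusted p of 0.482. Ccng2, a cyclin, had -0.65 ± 0.30 and Bcl6, a transcriptional repressor, 0.28 ± 0.14.

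**Figure D5:**
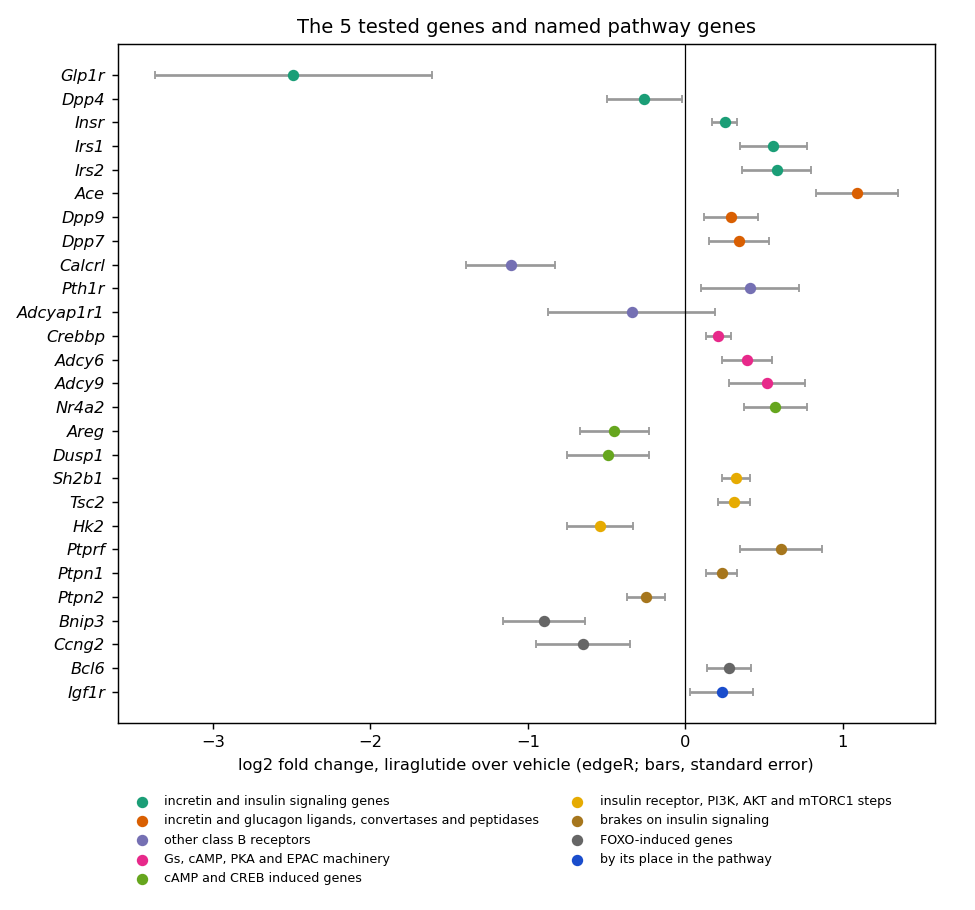
Log2 fold change, liraglutide over vehicle, from edgeR, with its standard error as a bar, for the 5 tested genes and the named genes of each pathway list, colored by list. Glp1r lies farthest from 0 and has the longest bar, and Insr, Sh2b1, Tsc2 and Crebbp have small values with short bars.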

How the data were processed

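Bulk RNA was sequenced from 5 vehicle and 5 liraglutide tumors after ribosomal RNA depletion. The authors checked reads with FastQC, mapped read pairs with Bowtie and TopHat to GRCm39 per their methods, counted them with featureCounts, left out samples at quality assessment, and deposited raw counts per gene with no normalization. The submitters' processing notes name the builds mm10 and GRCh38 instead. The annotation release was not given in the sources used here. Of 55401 identifiers, 51731 (93.38%) could be assigned to GENCODE M39 when the version suffix was ignored, which gave symbols, exon lengths and positions, and these held 98.31% of the counts, and 35 had the version of M39.

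Groups were taken from the sample titles. Genes were filtered with filterByExpr (17464 kept), scaled by TMM and compared with the quasi-likelihood test in edgeR 4.0.16 (R 4.3.3), with treatment as the only factor and Benjamini-Hochberg adjustment over all genes tested. CPM use TMM-scaled library sizes, with a prior count of 2 on the log2 scale. Single genes were also compared by two-sided exact permutation tests over 252 groupings (smallest p 0.00794), ratios within a tumor likewise, and correlations by 100000 permutations. Genes that did not pass were given as raw counts with 95% exact Poisson intervals, which cover counting error only. Between tumors of a group, counts varied at least 9.21 times more than counting alone gives (chi-square divided by its degrees of freedom), so all 10 were taken as separate samples. The scripts were tested on simulated counts.

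Genes named are the 8 chosen, the 3 of smallest p in each pathway list, the 3 most correlated with each tested gene (some of which are not reported here), and Igf1r, Slc2a4, Gcg, Gip, Ins1 and Ins2 by their place in the pathway. Gab1, Pik3r1, Pik3r3, Slc2a1 and single cell type markers were named after their values were seen. The genes and lists were chosen with earlier results of these data known. Marker lists of macrophages, dendritic cells and endothelium were also scored, and every score had a two-sided exact permutation p of 0.111 or more between the groups. Alternatives were DESeq2 1.42.0, limma-voom (limma 3.58.1), edgeR with the size factors of DESeq2, edgeR with library size alone, no filter, the tumor number as a block and each tumor left out. Relations of Glp1r were added after seeing the data. Promoter windows came from RefSeq on GRCm38.p6, with none for Gipr and Insr.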

Additional observations from a re-analysis of the deposited data

Results flagged for a closer look

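In 4 of the 69 groups of 5 tumors examined, 1 tumor lay far from the other 4, where chance gives about 1 in 20 groups. Glp2r was at 0.420 CPM in vehicle tumor 3, which is 4 counts, and the next vehicle tumor was at 0.0837 CPM. Gip was at 0.406 CPM in vehicle tumor 2, also 4 counts, and the next was at 0.0691 CPM. Adcy6, an adenylyl cyclase, was at 71.3 CPM in liraglutide tumor 2, where the next lowest liraglutide tumor had 116 CPM. Areg, an EGF receptor ligand, was at 48.5 CPM in liraglutide tumor 5, where the next lowest had 77.1 CPM.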

How the results depend on the processing

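The count of genes at an adjusted p under 0.05 was 0 with limma-voom and with edgeR under each alternative run, with 919 to 2704 genes at an unadjusted p under 0.05 and a smallest adjusted p of 0.0526 to 0.9 when a tumor was left out, and it was 52 with DESeq2. Over the alternatives the adjusted p was 0.216 to 0.9 for Glp1r, 0.0676 to 0.9 for Insr, 0.154 to 0.9 for Irs1, 0.188 to 0.9 for Irs2 and 0.639 to 0.927 for Dpp4. Leaving out each tumor gave log2 fold changes of -3.03 to -1.79 for Glp1r, -0.41 to -0.17 for Dpp4, 0.46 to 0.78 for Irs1 and 0.49 to 0.72 for Irs2. The sign turned when a tumor was left out in Glp2r, with differences from -0.0182 to 0.0944 CPM, in the log2 ratio of Irs2 to Irs1, with -0.14 to 0.06, and in that of Insr to Igf1r, with -0.12 to 0.11. Adcyap1r1 was at -0.69 to 0.0, the latter without vehicle replicate 3. The medians of 4 pathway lists turned as well, at -0.04 to 0.16 for the FOXO-induced genes, -0.01 to 0.06 for the insulin receptor steps, -0.16 to 0.01 for the cAMP and CREB induced genes and -0.42 to 0.13 for the class B receptors, which had 0.08 with limma-voom and 0.02 under the block. Those of the Gs list and the brakes stayed above 0, at 0.04 to 0.11 and 0.04 to 0.18. The causes were not tested.

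Same-numbered tumors of the groups came from different mice and the sample titles give no pairing, so the number was not taken as one. Their deviations nevertheless correlated over 0.1 in 3 of 5 pairs (-0.0753 to 0.565). The mean was 0.26 for same-numbered and -0.0682 for other pairs of tumors. With this number as a replicate block, edgeR called 0 genes (smallest adjusted p 0.228, 2585 at an unadjusted p under 0.05), Glp1r had a log2 fold change of -2.38 (adjusted p 0.24), and 3 of 10 tumors correlated best with their own number. Under the block the genes at an unadjusted p under 0.05 went from 1 to 5 in the FOXO-induced list, where leaving out a tumor gave 1 to 5, from 1 to 4 in the cAMP and CREB induced list, where it gave 1 to 3, from 2 to 5 in the brakes and from 2 to 4 in the Gs list, and the unadjusted p went under 0.05 for Dpp9 (0.00731), Adcy9 (0.00417), Areg (0.00846), Ccng2 (0.0076) and Igf1r (0.0461). Paired sign-flip tests of the ratios gave exact p of 0.75 and 0.938. Without the filter Gipr had a fitted log2 fold change of -0.79 (edgeR adjusted p 0.62). Depth limited Gcgr and Glp2r, with at most 2 and 4 counts in a tumor.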
